A study of Mus musculus with 4 samples.

Results

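S and G2M phase genes are the 46 cell cycle genes followed here, 21 transcribed for DNA replication (S) and 25 for mitosis (G2M). They were taken by symbol from the 31053 features of each count table, and all 46 were found once. The data are 4 droplet libraries of cells sorted from tumours of wild-type mice of the strain labelled C57/bl6. Each mouse carried a subcutaneous TC-1 tumour, grown from 300000 injected cells of a transplantable mouse tumour line. When a tumour measured 40 mm², the mouse received PBS or a single intraperitoneal dose of cisplatin at 6 mg/kg, a platinum drug that crosslinks DNA. A single library represents PBS, and 3 further libraries represent tumours taken 1, 3 and 7 days after the drug. No collection day is labelled for PBS, whose source is also called untreated in another field, and the number of mice behind a library is not stated. The sort kept CD45+, lineage-negative, CD90+, CD127+ cells, a phenotype of innate lymphoid cells, and each library was loaded with 15000 of them.

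Replication is prepared in G1, when the MCM helicase is loaded on origins, and begins when the E2F transcription factors are freed from the retinoblastoma protein. E2F then drives the helicase, the enzymes that make deoxynucleotides and cyclin E. Mitotic genes are switched on later, by B-MYB and FOXM1 acting with the MuvB complex. In resting cells, and after DNA damage through p53 and p21, MuvB joins the repressive DREAM complex and holds the same genes down. MuvB binds an element called CHR, often found near CCAAT boxes, the binding site of NF-Y. Tissue macrophages can divide where they reside, and cycling cells of a tumour can be of any lineage.

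Libraries are listed throughout in the order PBS, day 1, day 3, day 7. Their depths were 59915831, 82493626, 36587207 and 16153484 UMIs (unique molecular identifiers, each a counted RNA molecule). After filtering, 7307, 6693, 4668 and 2702 cells were kept, with medians of 6162, 8848, 6072.5 and 5025.5 UMIs. Pairs of libraries shared between 4 and 32 cell barcodes, at most 0.511% of the smaller library. Cells were gated by marker UMIs. The macrophage gate (at least 4 of 10 markers such as Lyz2, C1qa and Csf1r with a UMI, over 1% of a cell's UMIs from them, at most 1 UMI each of the T, NK and tumour-like genes) held 6408, 5236, 3197 and 2193 cells. The T gate (at least 2 UMIs of Cd3d, Cd3e and Cd3g) held 144, 298, 541 and 94, and the natural killer (NK) gate (at least 2 UMIs of Ncr1, Klrb1c, Klra8, Klre1 and Eomes, none of the T genes) 44, 43, 78 and 59. Both allowed at most 1% of UMIs from macrophage markers. Thus the library labels name innate lymphoid cells, while 87.7, 78.2, 68.5 and 81.2% of kept cells passed the macrophage gate. A tumour-like gate on 6 epithelial and tumour genes found 0 cells in any library: Krt8, Krt18, Krt7, Krt19 and Epcam together gave between 5 and 90 UMIs per library. The sixth gene, Cdkn2a, was abundant in a few cells, and cells with at least 2 Cdkn2a UMIs and none of Ptprc, the CD45 gene, or of the T genes, and with the same macrophage marker limit, were gated instead. These Cdkn2a+ Ptprc- cells number 33, 20, 2 and 78, and are called by that rule because it was set after the data were seen and their lineage was not established.

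Each group is 1 library, so no difference between groups has a replicate check and no test was made. Levels are CPM, the UMIs of a gene per 1000000 UMIs of the cells named. Ratios are given as log2 of the cisplatin library over the PBS library with exact conditional binomial 95% intervals, and shares of cells with exact Clopper-Pearson 95% intervals. Both cover counting error only. A gene with at least 20 UMIs over the 2 libraries is called higher or lower when the ratio is at least 1.5-fold and its interval excludes 1. The 3 comparisons share the PBS library, and time, tumour size, sort and library cannot be told apart from the drug. Within summed cells, fewer cycling cells and less RNA per cycling cell cannot be told apart either.

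Promoter sequences are shown because the 2 lists differ in the elements they carry. Windows of 250 bases before to 50 after the start site were present in the RefSeq table (GRCm38) for 18 of the 21 S members and 21 of the 25 G2M members. The CHR letters TTTGAA or TTCGAA, on either strand, were in 17 of the 21 G2M windows (81.0%) and 3 of the 18 S windows (16.7%), against 19.4% of 27025 promoters of the same length. E2F letters (TTTCGCGC, TTTGGCGC, TTTCCCGC or TTCCCGCC) were in 8 S windows (44.4%) and 1 G2M window (4.76%), against 3.57% of all promoters. CCAAT occurred in 12 S windows (66.7%) and 18 G2M windows (85.7%), against 37.9%. These are letter matches, and no binding was measured. The 3 S and 3 G2M promoters below belong to the abundant members that have a motif in a stretch outside every annotated exon, a condition added after the windows had been read. They lie in the 200 bases upstream of the start, 5′ to 3′ on the gene's strand, with motif letters of either strand in capitals (CCAAT reads ATTGG and TTTGAA reads TTCAAA on the other strand). They are Mcm6 (chr1:128359706-128359905, minus strand), Mcm3 (chr1:20820313-20820512, minus), Rrm1 (chr7:102441495-102441694, plus), Ube2c (chr2:164769729-164769897, plus), Top2a (chr11:99024190-99024389, minus) and Mki67 (chr7:135716380-135716579, minus).
Mcm6: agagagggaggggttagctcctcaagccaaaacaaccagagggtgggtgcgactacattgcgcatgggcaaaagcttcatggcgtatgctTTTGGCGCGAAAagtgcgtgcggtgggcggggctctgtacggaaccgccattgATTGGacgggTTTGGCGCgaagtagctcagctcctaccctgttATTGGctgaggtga
Mcm3: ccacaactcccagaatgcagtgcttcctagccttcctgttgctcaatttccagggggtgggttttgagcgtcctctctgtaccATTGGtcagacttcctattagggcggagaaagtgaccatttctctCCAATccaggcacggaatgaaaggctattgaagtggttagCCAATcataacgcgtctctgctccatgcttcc
Rrm1: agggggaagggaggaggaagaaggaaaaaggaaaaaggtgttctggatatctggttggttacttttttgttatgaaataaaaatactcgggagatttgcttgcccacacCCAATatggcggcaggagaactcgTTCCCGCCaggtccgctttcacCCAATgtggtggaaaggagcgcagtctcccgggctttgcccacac
Ube2c: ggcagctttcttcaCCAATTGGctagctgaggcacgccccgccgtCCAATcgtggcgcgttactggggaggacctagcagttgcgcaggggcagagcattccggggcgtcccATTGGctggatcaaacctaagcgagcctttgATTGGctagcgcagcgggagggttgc
Top2a: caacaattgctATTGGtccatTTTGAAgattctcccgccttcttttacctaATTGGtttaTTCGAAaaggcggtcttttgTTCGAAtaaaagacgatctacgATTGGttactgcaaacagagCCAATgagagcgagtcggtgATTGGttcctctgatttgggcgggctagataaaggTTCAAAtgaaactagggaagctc
Mki67: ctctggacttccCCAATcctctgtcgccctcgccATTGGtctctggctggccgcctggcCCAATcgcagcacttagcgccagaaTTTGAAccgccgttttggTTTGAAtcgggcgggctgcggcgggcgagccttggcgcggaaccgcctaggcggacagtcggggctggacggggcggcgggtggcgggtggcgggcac
The Top2a stretch holds 4 CHR matches and 5 CCAAT boxes, and that of Mki67 2 CHR matches and 3 CCAAT boxes. Ube2c shows 5 CCAAT boxes in the 169 bases that are free of exons, 2 of which overlap on opposite strands. In the Mcm6 stretch there are 3 E2F matches, of which 2 overlap, and 2 CCAAT boxes. Rrm1 has 1 E2F match and 2 CCAAT boxes, and Mcm3 has 3 CCAAT boxes. The full windows of Mcm3 and Ube2c also hold E2F letters and CHR letters, respectively, outside the stretches shown.

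Over all kept cells, both lists were below PBS on days 1 and 3, the G2M list further than the S list. Summed G2M UMIs stood at 1654 CPM after PBS and at 598, 429 and 952 CPM on days 1, 3 and 7. Summed S UMIs stood at 1090, 613, 581 and 993 CPM. The PBS library was highest for both lists and day 3 lowest. The median log2 ratio of the 25 G2M members was -1.54, -2.18 and -0.80 on days 1, 3 and 7, and that of the 21 S members -0.80, -1.05 and -0.09, while the median over all features with 20 UMIs was 0.14, -0.03 and 0.02. On day 1, 25 of 25 G2M and 14 of 21 S members were lower, against 3.8% of all 14146 features tested. By day 3 the counts were 25 and 17, against 15.1%, and on day 7 they were 18 and 5, against 12%. Cenpa had the highest G2M ratio on all 3 days (-0.62, -0.70 and 0.21), and Plk1 (-2.49), Hmmr (-3.00) and Mki67 (-2.08) the lowest on days 1, 3 and 7. Slbp was the highest S member on days 1 and 3 (-0.04 and 0.19) and Pcna on day 7 (0.84, called higher, against 19.9% of features), while Tk1 was lowest on days 1 and 3 (-1.83 and -1.82) and Rrm1 on day 7 (-0.89).

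The cells that held these UMIs changed between libraries. Macrophage-gated cells gave 77.2% of the G2M UMIs after PBS, but 42.9, 45.4 and 59.0% on days 1, 3 and 7. Cells in no gate gave 21.6, 42.0, 40.2 and 24.6%, from 9.01, 15.2, 16.3 and 10.2% of the cells. They include cells that a gate left out for carrying markers of another lineage. On day 1 they held 24681 CPM of macrophage markers and 275 CPM of T genes. The T gate supplied 0.582, 5.93, 11.1 and 1.37% of G2M UMIs. Cdkn2a+ Ptprc- cells supplied 0.524, 5.60, 0.0732 and 14.5%, and 19.6% of the S UMIs on day 7 from 2.89% of the cells. Sums over all cells therefore mix populations, and each population is described on its own below.

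**Figure D1:**
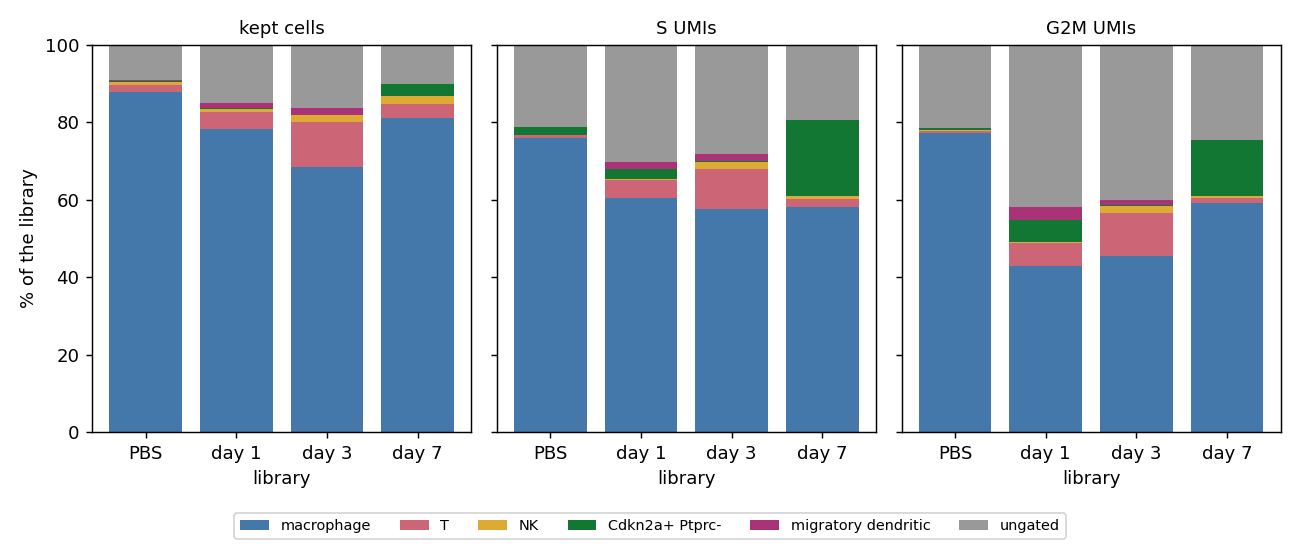
Stacked bars give the percentage of each library's kept cells, S UMIs and G2M UMIs that lies in each gate, with 1 bar per library. Macrophage-gated cells hold 77.2% of G2M UMIs after PBS and 42.9% on day 1, although they are 78.2% of the day 1 cells.

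In macrophage-gated cells, G2M transcripts were 4.43-fold lower on day 1 and 5.27-fold lower on day 3 than after PBS, and 2.05-fold lower on day 7. Their summed level was 1507 CPM after PBS, then 340.05, 286 and 736 CPM. The log2 ratios were -2.15 (-2.17 to -2.12), -2.40 (-2.44 to -2.36) and -1.03 (-1.07 to -1.0). S transcripts summed to 978, 490, 492 and 754 CPM, with log2 ratios of -1.0 (-1.02 to -0.98), -0.99 (-1.02 to -0.96) and -0.38 (-0.41 to -0.34). Days 1 and 3 were thus alike in the S sum, and day 7 lay between them and PBS for both lists. The median over members was -2.21, -2.66 and -1.15 for G2M and -0.94, -1.15 and -0.34 for S, where all features had medians of 0.09, -0.06 and -0.12. All 25 G2M members were lower on day 1, against 4.63% of the 13383 features tested, and all 25 on day 3, against 15.8% of 12600. On day 7, 20 of 25 were lower, against 15.8% of 12391. The matching counts of lower S members were 15, 17 and 10 of 21. T and NK markers, which the gate itself limits, summed to between 3.66 and 15.1 CPM and between 0.827 and 3.91 CPM. Stromal markers (Col1a1, Col3a1, Dcn, Meg3), which it does not limit, summed to 31.3, 101, 47.0 and 244 CPM, and their part in the ratios was not tested.

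**Figure D2:**
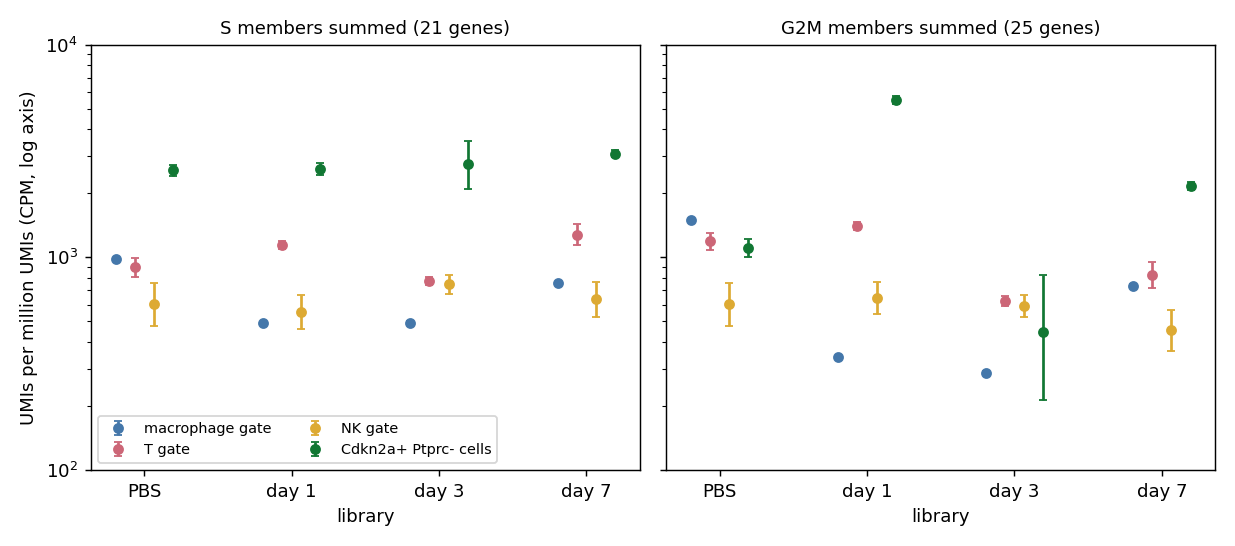
Points give the summed CPM of the S members (left) and G2M members (right) in each gate and library, on a log axis, with exact Poisson 95% intervals that cover counting error only. Macrophage G2M levels run from 1507 CPM after PBS to 286 CPM on day 3, while Cdkn2a+ Ptprc- cells went from 1107 CPM to 5485 CPM between PBS and day 1. The day 3 point of those cells rests on 2 cells.

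Among G2M members of the macrophage gate, the DNA-packaging and proliferation genes were lower on all 3 days. Top2a, the topoisomerase that untangles sister chromatids (ENSMUSG00000020914, chr11:98992943-99024189 in mm10), stood at 150.5 CPM after PBS and at 41.7, 28.4 and 45.6 CPM on days 1, 3 and 7. Mki67, which coats mitotic chromosomes and is the usual histological mark of dividing cells, stood at 109.5, 27.0, 19.1 and 24.0 CPM. Both genes were highest after PBS and remained low on day 7, with log2 ratios of -1.72 and -2.19 on that day.

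Among the mitotic kinases and cyclins, Plk1 and the cyclins were below the day 1 G2M median of -2.21. Cdk1, Aurka, Aurkb and Bub1 were above it. Cdk1, the kinase that drives entry into mitosis, stood at 69.8, 20.7, 16.0 and 38.0 CPM, and was the kinase of the list with the smallest change on day 1 (-1.76). Plk1, a kinase of spindle assembly and mitotic exit, was the lowest member on day 1, at -3.20 (-3.49 to -2.93), from 980 UMIs after PBS and 124 on day 1. The cyclins Ccnb1, Ccnb2 and Ccna2, partners of Cdk1, were at -2.90, -3.09 and -2.37 on day 1 and at -3.29, -3.23 and -2.80 on day 3. By day 7 they had separated: Ccnb2 was at -0.32 and not called, while Ccna2 at -0.99 and Ccnb1 at -1.36 were still lower. Aurka, the centrosome kinase, and Aurkb, the kinase of the chromosomal passenger complex, went from -1.94 and -2.13 on day 1 to -0.52 and -0.59 on day 7, with Aurkb alone of the pair called lower. Bub1, a kinase of the spindle checkpoint, was at -2.14, -2.84 and -1.55.

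Ube2c, the ubiquitin-conjugating enzyme of the anaphase-promoting complex (ENSMUSG00000001403, chr2:164769898-164778822), stood at 158 CPM after PBS and at 37.0, 26.2 and 65.1 CPM on days 1, 3 and 7. Birc5, which encodes survivin of the passenger complex, stood at 144, 22.3, 22.6 and 89.2 CPM. Cdca8, the borealin subunit of the same complex, stood at 74.9, 17.3, 17.4 and 35.8 CPM. Cdca3, needed for mitotic entry, stood at 65.3, 9.36, 9.36 and 44.5 CPM. In these 4 genes PBS was highest, and day 7 was above days 1 and 3.

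Kinetochore genes ranged widely. Cenpa, the histone H3 variant of centromeres (ENSMUSG00000029177, chr5:30666777-30674830), stood at 105 CPM after PBS and at 51.6, 49.0 and 109 CPM on days 1, 3 and 7. It had the highest ratio of the G2M members on all 3 days: -1.02 (-1.09 to -0.95), -1.09 (-1.19 to -1.0) and 0.06 (-0.03 to 0.15). Cenpf, a large protein of the outer kinetochore, had the lowest ratio on day 3, at -3.90 (-4.21 to -3.61), with 66.2 CPM in the PBS library against 4.43 CPM. Cenpe, a kinetochore motor, was at -2.36, -2.82 and -1.97, and Spc24 of the NDC80 complex at -2.21, -2.13 and -0.78. The spindle genes Tpx2, Nusap1, Hmmr, Kif11 and Kif23 lay between -1.83 and -2.75 on day 1 and between -1.12 and -1.82 on day 7. Iqgap3 was at -1.79, -2.00 and -1.68. Cdkn3, a phosphatase that acts on cyclin-dependent kinases, was at -3.07 and -3.68 on days 1 and 3 and at -0.58 on day 7.

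**Figure D3:**
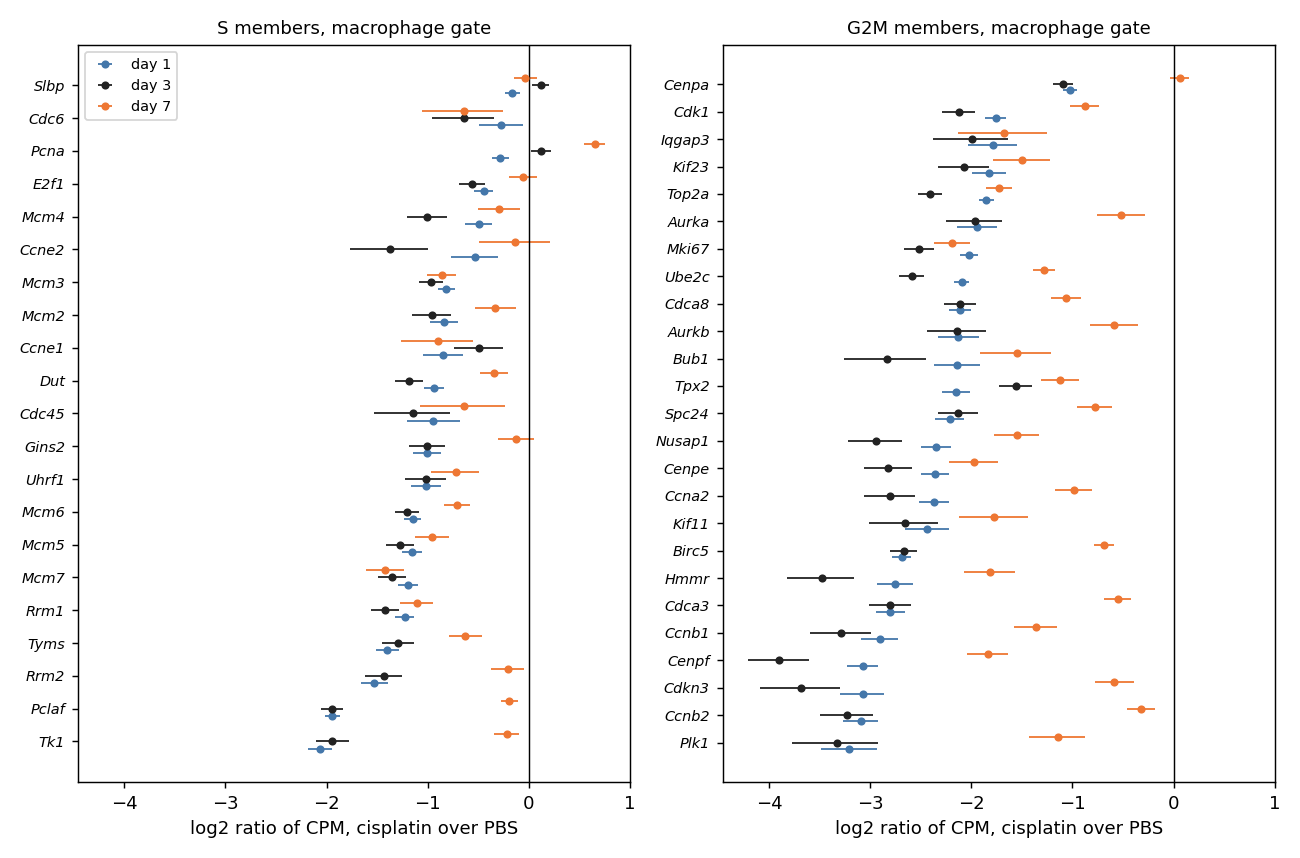
Each point is the log2 ratio of CPM in macrophage-gated cells for 1 member on day 1, 3 or 7 against PBS, with its 95% counting interval; members are sorted by the day 1 ratio. Every G2M member lies below 0 on days 1 and 3, while Slbp and Pcna stay near or above 0.

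S members ranged in macrophages from -2.06 to -0.16 on day 1, from -1.95 to 0.13 on day 3 and from -1.42 to 0.65 on day 7. Among genes of origin licensing and the replicative helicase, Mcm6 stood at 77.4 CPM after PBS and at 34.9, 33.6 and 47.3 CPM on days 1, 3 and 7, and Mcm3 at 67.5, 38.4, 34.5 and 37.2 CPM. Both were highest after PBS. Mcm7 had the lowest day 7 ratio of the S list, at -1.42 (-1.61 to -1.23), and Mcm5 was at -1.16, -1.27 and -0.96. Mcm2 and Mcm4 were lower on day 3 (-0.96 and -1.01) but not called on day 7 (-0.33 and -0.29). The helicase partners Cdc45 and Gins2 were at -0.94 and -1.01 on day 1, and Cdc6, the MCM loader, was at -0.27 and not called on that day. Cdc6 stood at 8.51 CPM after PBS and at 7.05, 5.44 and 5.45 CPM on days 1, 3 and 7.

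The enzymes of deoxynucleotide supply were lower on days 1 and 3. Tk1, thymidine kinase, had the lowest ratio of the S list on day 1, at -2.06 (-2.18 to -1.94), and went from 63.9 CPM after PBS to 15.3, 16.7 and 55.0 CPM. Tyms, Rrm1 and Rrm2, which encode thymidylate synthase and the ribonucleotide reductase subunits, were at -1.40, -1.23 and -1.53 on day 1. On day 7 Rrm1 was at -1.11, while Rrm2 was at -0.21 and not called. Dut, which removes dUTP, stood at 56.1, 29.3, 24.7 and 44.3 CPM, highest after PBS.

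Clamp-associated genes went different ways. Pclaf, a PCNA-binding factor, stood at 134 CPM after PBS and at 34.8, 34.6 and 117 CPM on days 1, 3 and 7, and had the lowest ratio of the S list on day 3, at -1.95 (-2.06 to -1.84). Pcna, the sliding clamp itself, which is also a p53 target and acts in DNA repair (ENSMUSG00000027342, chr2:132249162-132253314), stood at 55.2, 45.3, 60.1 and 86.5 CPM. It was the highest S member on days 3 and 7, at 0.13 (0.03 to 0.22) and 0.65 (0.54 to 0.76), and was called higher on day 7. Slbp, which binds the stem-loop of histone mRNAs (ENSMUSG00000004642, chr5:33634952-33652574), stood at 74.1, 66.2, 80.3 and 72.4 CPM, and was the highest S member on day 1, at -0.16 (-0.23 to -0.09). Slbp was not called on any day. Uhrf1, which maintains DNA methylation, was at -1.01, -1.02 and -0.72. The regulators of S entry Ccne1 and Ccne2, which encode cyclin E, were at -0.85 and -0.53 on day 1, and E2f1 was at -0.45, -0.56 and -0.05 and was not called on any day.

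The share of macrophages with several members per cell differed as the sums did. Each cell was thinned to 2000 UMIs, which left out 344, 399, 333 and 299 shallower cells, and counted when it held UMIs of at least 3 different members. The G2M share was 17.7% after PBS (16.8 to 18.7%). It was 2.94% (2.48 to 3.45%) at day 1, 2.44% (1.91 to 3.08%) at day 3 and 10.2% (8.86 to 11.6%) at day 7. The unthinned shares were 33.8, 17.2, 7.48 and 17.6%. The S share was 17.9% (16.9 to 18.8%), 6.14% (5.48 to 6.85%), 5.48% (4.68 to 6.38%) and 12.8% (11.3 to 14.4%), and unthinned 42.5, 37.3, 25.5 and 30.6%. The PBS and day 7 shares are apart from each other and from days 1 and 3 beyond counting error in both lists. Cells with 3 members of both lists made up 8.48, 1.76, 1.82 and 4.28% of macrophages, S alone 9.38, 4.38, 3.67 and 8.50%, and G2M alone 9.27, 1.18, 0.628 and 5.91%. Within the cells that counted for G2M, the median was 9 G2M UMIs after PBS and 7, 6 and 7 on days 1, 3 and 7. At least 10 different G2M members were seen in 5.01% of macrophages after PBS and in 0.351, 0.175 and 1.48% on days 1, 3 and 7.

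For comparison, migratory dendritic cells (at least 2 of Ccr7, Fscn1 and Ccl22) were counted the same way. Of 180 such cells over the 4 libraries, 3.89% (1.58 to 7.85%) reached 3 G2M members and 1.67% (0.345 to 4.79%) reached 3 S members. Their median depths were 3725.5, 7675.5, 6728 and 2207 UMIs, against 6113.5, 8964, 6428 and 5012 in macrophages. The 7 dendritic cells counted for G2M were 3 of 18 after PBS (16.7%, 3.58 to 41.4%), 3 of 78 on day 1 and 1 of 82 on day 3. Those of day 1 had a median depth of 73714 UMIs and a median of 18 G2M UMIs after thinning. The pooled value is thus not a level of free RNA alone. Shares are set beside it below as a description only, and a share within its interval is not read as background. The macrophage G2M shares of days 1 and 3 lay within its interval, and those of PBS and day 7 above it. The S shares of PBS, day 1 and day 7 had intervals above it, and that of day 3 overlapped it. The part of free RNA in any of these shares was not tested.

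**Figure D4:**
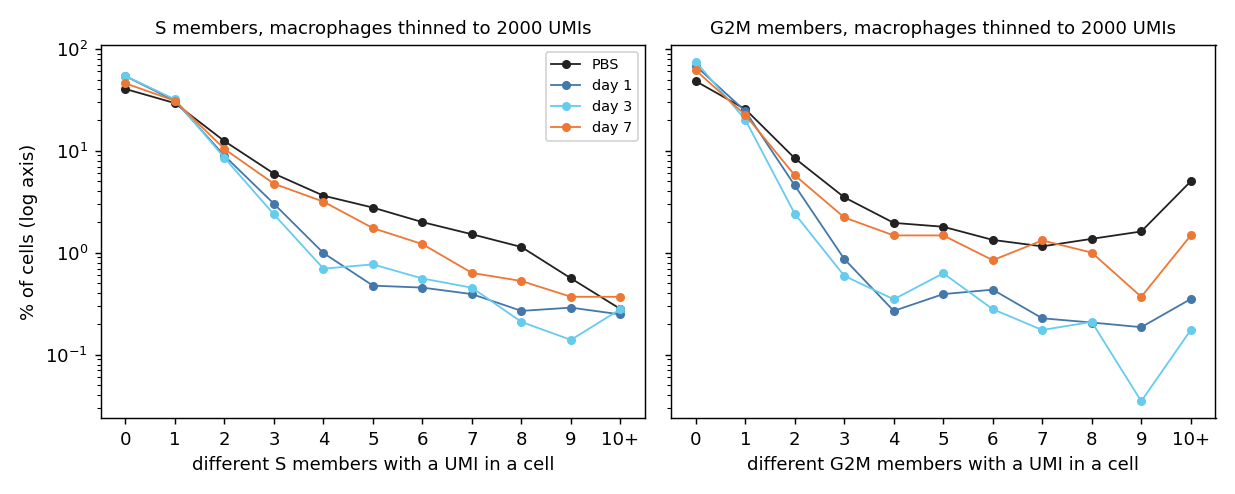
Lines give the percentage of macrophage-gated cells, thinned to 2000 UMIs, in which 0, 1 and up to 10 or more different S (left) or G2M (right) members had a UMI, on a log axis, with 1 line per library. The share of cells with at least 3 members is highest in PBS and second on day 7 for both lists. The libraries differ below 3 members too. Exactly 2 G2M members were seen in 512 of 6064 cells after PBS. On days 1, 3 and 7 they were seen in 221 of 4837, 69 of 2864 and 109 of 1894.

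On day 7 the ratios of the G2M members in macrophages tended to be lower for longer transcripts, with exceptions. Cenpa (0.06), Ccnb2 (-0.32), Aurka (-0.52), Cdca3 (-0.55) and Cdkn3 (-0.58) were the 5 members not called, and their longest coding transcripts have 1466, 1531, 1905, 1976 and 1952 bases. Cdca8 and Spc24, with 1626 and 1696 bases, were nevertheless called lower. Mki67, Cenpe, Cenpf and Hmmr had the lowest ratios (-2.19, -1.97, -1.84 and -1.82) and transcripts of 10061, 7910, 11130 and 3892 bases. Across the 25 G2M genes, Spearman's rho of length with the day 7 ratio was -0.85, against 0.09 on day 1 and -0.15 on day 3. The S list gave -0.41 and the other mitotic genes listed below -0.38 on day 7, and 11676 features of all kinds gave -0.28, where they gave 0.26 on day 1. These are descriptions across genes of 1 pair of libraries, genes are not independent replicates, and whether the day 7 library differs in RNA quality was not tested. How transcript length bears on these counts was not tested either.

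**Figure D5:**
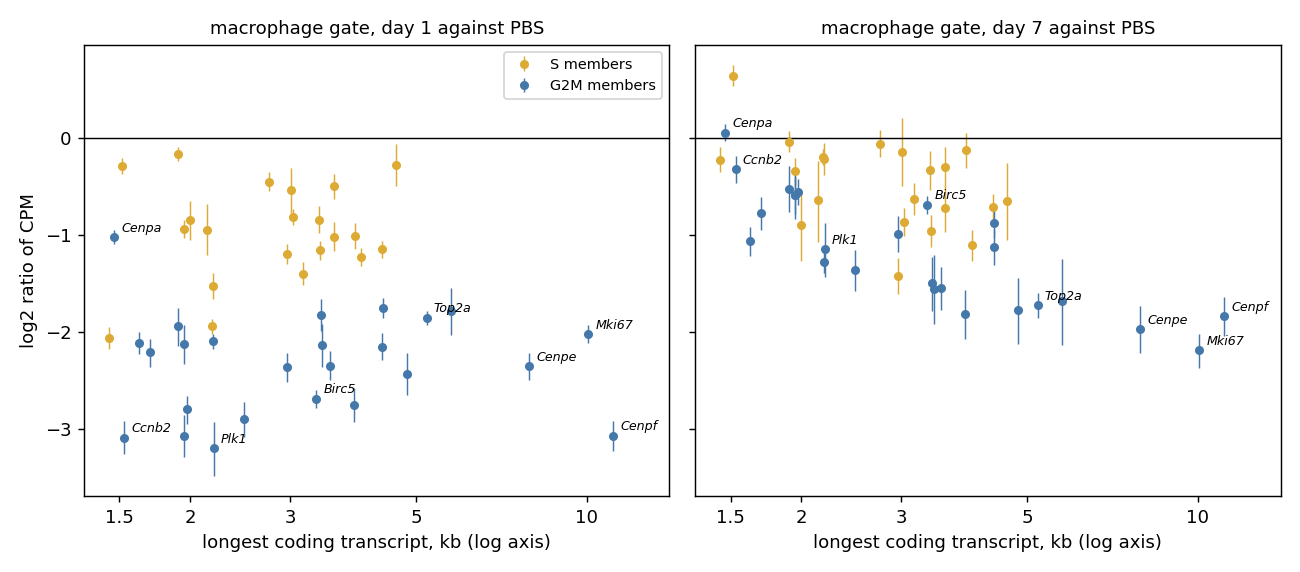
Each point is 1 member in macrophage-gated cells, placed by the length of its longest coding transcript (kb, log axis) and its log2 ratio against PBS with the 95% counting interval, for day 1 (left) and day 7 (right). On day 7 the G2M members, from Cenpa at 0.06 to Mki67 at -2.19, tend to lie lower as length grows, with exceptions. On day 1 they show no such trend.

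The macrophage levels depended on how macrophages were defined, though their direction did not. With at least 6 of the 10 markers and no limit on their share, a rule chosen after seeing the data, summed G2M stood at 1670, 433, 368 and 822 CPM, and the day 1 median over members was -1.96 in place of -2.21.

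In T-gated cells both summed lists were above PBS on day 1 and below it on day 3, and on day 7 S was above and G2M below. Summed S UMIs stood at 897, 1145, 778 and 1279 CPM and G2M at 1189, 1403, 624 and 827 CPM after PBS and on days 1, 3 and 7, where day 3 was lowest in both. The log2 ratios of the sums were 0.35, -0.21 and 0.51 for S and 0.24, -0.93 and -0.52 for G2M. The G2M members had median log2 ratios of 0.16, -0.90 and -0.16 over 23, 21 and 13 members with 20 UMIs, and the S members 0.39, -0.30 and 0.70 over 21, 18 and 14. All features had 0.091, 0.013 and -0.0022. On day 1, 3 G2M members were higher and 1 lower, and 5 S members higher and 1 lower, against 6.25% higher and 2.17% lower among all features. On day 3, 10 G2M members were lower and none higher, and 3 S members lower and 1 higher, against 5.66% lower and 8.28% higher. Day 7 had 3 G2M members lower, and 6 S members higher and 1 lower, against 9.97% lower and 12.9% higher.

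Pcna was called higher in the T gate on all 3 days, at 1.08, 1.23 and 2.03, from 11 UMIs after PBS and 95, 155 and 27 later, and had the highest S ratio on days 3 and 7. Rrm2 had the highest S ratio on day 1 (1.79), and Mcm6 was lower on all 3 days (-1.0, -0.96 and -1.10). Gins2 had the lowest S ratio on day 3 (-1.0) and Mcm5 on day 7 (-1.27), both not called. Among G2M members, Nusap1 was highest on day 1 (1.44) and Ccnb1 lowest on days 1 and 3 (-1.18 and -1.91). The highest values on days 3 and 7 were Nusap1 at -0.0031 and Cdca3 at 0.36, not called, and Ube2c was lowest on day 7 (-3.15) with 59 UMIs after PBS and 4 on day 7.

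A few barcodes carried much of the T signal. On day 1, 4 of 298 cells held at least 50% of the G2M UMIs, and 3 barcodes that also held a Cdkn2a UMI gave 37.2% of the G2M and 35.8% of the S UMIs. Without Cdkn2a-positive barcodes, a choice made after seeing the data, the T gate stood at 1225, 1002, 624 and 861 CPM of G2M, and its day 1 median was -0.57 in place of 0.16. Its S sums without them were 801, 835, 778 and 1267 CPM, so the day 1 S level came close to that of PBS. In the migratory dendritic cells of day 1, 5 of 82 barcodes with Cdkn2a held 88.9% of the G2M UMIs. After thinning, 11.8, 7.58, 4.52 and 9.43% of T-gated cells reached 3 G2M members, and 12.9, 7.58, 9.45 and 26.4% reached 3 S members. Unthinned, these were 11.1, 14.8, 9.43 and 7.45% for G2M and 12.5, 19.8, 24.8 and 18.1% for S. The intervals of the G2M shares overlap one another and, for all 4 libraries, that of the pooled dendritic cells. T-gated cells were shallow, with medians of 2210, 3805.5, 3493 and 2099.5 UMIs, so 59, 21, 54 and 41 cells were too shallow to count.

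NK-gated cells, fewer than 50 in the PBS and day 1 libraries, showed no difference of either summed list that was detectable at this depth under the gate as defined. Summed S stood at 606, 554, 747 and 638 CPM and G2M at 606, 647, 593 and 455 CPM. The log2 ratios of the sums were -0.13, 0.30 and 0.07 for S and 0.09, -0.03 and -0.41 for G2M, with intervals that include 0 on all 3 days; the widest, G2M on day 7, runs from -0.88 to 0.05. These values depended on the gate: with macrophage markers limited to 0.5% of UMIs, G2M was at -0.80, -0.75 and 0.45 and S at 0.13, 0.80 and 0.93, and the intervals of G2M on day 3 and of S on days 3 and 7 then excluded 0. Intervals also excluded 0 for G2M on day 1 with doublets kept (0.45), on day 3 with a marker limit of 3% (0.36) and on day 7 with edgeR factors (-0.60), DESeq2 factors (-0.54) or at least 1000 genes per cell (-0.57). One cell held at least 50% of the G2M UMIs on each of days 1, 3 and 7. With so few UMIs, 1, 9 and 2 S members and 3, 5 and 1 G2M members reached 20 UMIs. Among G2M members, Top2a was higher on day 1 (1.61), against 9.5% of all features higher and 6.54% lower, while Birc5 was lowest on days 1 and 3 (-1.17 and -1.45), called on day 3, against 3.8% lower and 9.19% higher. On day 3 Mki67 was the highest G2M value (1.72, interval -0.29 to 4.85, not called). Slbp was the one S member with 20 UMIs on day 1 (0.67) and the lower of the pair on day 7 (0.54), and Pcna was higher on day 7 (2.66, interval 0.60 to 5.82, from 2 to 18 UMIs), against 16.7% higher and 8.78% lower. Pcna was also the highest S value on day 3 (1.39, interval -0.67 to 4.53, not called), and Mcm7 the lowest (-0.45). Pclaf had 0 UMIs after PBS and 23 on day 3.

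In Cdkn2a+ Ptprc- cells summed S transcripts were near their PBS level on day 1 and slightly above it on day 7, while summed G2M transcripts were higher on both days. Summed S stood at 2564, 2606 and 3077 CPM and summed G2M at 1107, 5485 and 2171 CPM in the PBS, day 1 and day 7 libraries; the 2 day 3 cells gave 61 S and 10 G2M UMIs and no ratio is read from them. The log2 ratio of the G2M sum was 2.31 (2.16 to 2.46) on day 1 and 0.97 (0.82 to 1.12) on day 7, and that of the S sum 0.02 (-0.10 to 0.15) and 0.26 (0.16 to 0.37). Of 23 G2M members with 20 UMIs on day 1, 22 were higher, against 8.14% of all features, with a median of 2.06. The filter is on the sum of the 2 libraries, so some members passed mainly through their day 1 UMIs. Ccna2 went from 5 UMIs after PBS to 77 on day 1 and Aurka from 3 to 28, while Top2a went from 46 to 218. On day 7, 12 of 24 were higher and 3 lower, against 13.3% and 9.93%, with a median of 0.90. S members had medians of -0.29 and 0.19, with 4 higher and 2 lower on day 1, against 4.44% lower among all features, and 5 higher on day 7, where all features had 0.06 and 0.10.

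Nusap1 was the highest G2M member on day 1, at 4.0 (2.37 to 6.33) from 3 UMIs after PBS and 49 on day 1, and Ube2c went from 32 to 511 UMIs (3.97). Ccnb2 was the lowest, at 0.68 and not called. On day 7 Plk1 was highest (4.0, interval 1.44 to 9.34, from 1 to 40 UMIs) and Kif11 lowest (-2.54), and Mki67 was lower (-0.90) while Ube2c was higher (2.42). Among S members, Cdc45 was highest on day 1 (1.90) and Mcm6 lowest (-1.43), and on day 7 Rrm2 was highest (2.00) and Mcm7 lowest (-0.52, not called). Per cell, the G2M level ran from 0 over a median of 296 to 7748 CPM after PBS, from 235 over 6418 to 11657 CPM on day 1, and from 0 over 402 to 11255 CPM on day 7, so the libraries overlap. Cells at 1000 CPM or more numbered 6 of 33, 16 of 20 and 30 of 78.

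The condition of no Ptprc UMI bears on these values. Without it the gate held 49, 36, 3 and 92 cells and G2M stood at 2236, 6154, 8069 and 2535 CPM, and the median over members was 1.29 on day 1 and 0.17 on day 7. The stromal markers summed to 1161, 724 and 1320 CPM in the PBS, day 1 and day 7 cells, against 31.3, 101 and 244 CPM in macrophages. Among cells without UMIs of Col1a1, Col3a1 and Dcn, only 5, 8 and 14 remained, and the G2M medians were 4.63 and 2.13. The part of stromal cells in these values was not tested.

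Other genes of the same phases, listed apart from the 46 members, were mostly lower in macrophages too. Of 38 other S genes, 29, 27 and 22 were lower on days 1, 3 and 7 and none higher, with medians of -0.87, -0.91 and -0.76, against 4.63, 15.8 and 15.8% of all features lower and 12.1, 15.3 and 12.4% higher. Of 49 other G2M genes, 44, 43 and 35 were lower and 0, 2 and 1 higher, with medians of -1.65, -2.04 and -1.02, against the same shares. Over all kept cells, Nuf2, Pbk and Knstrn, genes of the kinetochore and mitotic spindle, had the lowest day 1 ratios of the G2M list (-2.04, -1.80 and -1.65). Aspm, Ttk and Anln were lowest on day 3 (-2.64, -2.52 and -2.48) and Aspm, Prc1 and Kif4 on day 7 (-2.15, -1.76 and -1.76). Pttg1 and Psrc1 were above PBS on all 3 days. Pttg1, which encodes securin, the guard of sister chromatid cohesion, stood at 33.5 CPM after PBS and at 39.3, 86.3 and 64.9 CPM on days 1, 3 and 7. It was called higher on days 3 and 7 (1.36 and 0.95). Psrc1, at 3.94, 5.46, 5.36 and 8.45 CPM, was the highest on days 1 and 7 (0.47, not called, and 1.10, called higher) and was at 0.44 on day 3, not called, while Gtse1 (0.03 on day 1), Tubb4b (-0.14 on day 3) and Cks1b (0.53 on day 7) completed the highest values.

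In the other S list, Lig1, a DNA ligase of replication, was among the lowest on day 1 (-1.07). Clspn, Exo1 and Dscc1 were lowest on day 3 (-1.40, -1.39 and -1.33) and Clspn, Brip1 and Pole on day 7 (-1.35, -1.28 and -1.16). Cdt1, the licensing factor, was the highest on days 1 and 3 (0.00 and 0.28), with Nasp at -0.23 and -0.03, Pola2 at -0.25 and Orc1 at -0.10. Orc1, Pold2 and Ranbp1 were highest on day 7 (0.39, 0.38 and 0.36), and none of these was called.

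Control genes of G1 and G0 did not share the direction of the members on days 1 and 7, while on day 3 more were lower than higher. Of 29 such genes, 6, 6 and 10 were higher and 4, 10 and 1 lower in macrophages on days 1, 3 and 7, with medians of 0.06, -0.13 and 0.16, against 12.1, 15.3 and 12.4% of all features higher and 4.63, 15.8 and 15.8% lower. Over all kept cells, Cdkn1a, the p53 target that encodes p21, was at 1.24, 1.86 and 0.83, and Cdkn1b (p27) at 0.84, 0.70 and 0.85. Cdkn2c (p18) was at -1.03, -1.95 and 0.35, and Cdkn2d (p19) at -0.81, -0.93 and -0.23. Ccnd2, a D-type cyclin of G1, was at 1.43, 3.04 and 1.77, from 12.8 CPM to 34.3, 105 and 43.7 CPM, while Ccnd1 was at 0.03, 0.16 and -0.48 and Ccnd3 at -0.15, 0.10 and 0.29. Ccng1 was at 1.17 on day 1, and Btg2, an antiproliferative gene, at 1.46 on day 3. Cdkn2a was at 0.68, -1.49 and 3.23 and its neighbour Cdkn2b at 0.69, -0.64 and 2.04. Cdkn1c was at -0.17, -0.35 and 0.26. Of the E2F genes, E2f2 was at -0.65, -0.67 and -0.57, E2f3 at 0.05, -0.04 and -0.36, E2f4 at 0.12, 0.35 and 1.67, and E2f5 at -0.31, -1.12 and -0.38. Lin9, of the MuvB core, was among the lowest on day 7 (-0.46, not called).

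Barcodes left out of the kept cells carried both lists. Those over 10% mitochondrial UMIs, a sign of damaged cells, numbered 1898, 3102, 1196 and 135 and held 1840, 873, 625 and 1190 CPM of G2M. The barcodes with the highest doublet scores held 1687, 472, 289 and 905 CPM of G2M. In both sets PBS was highest and day 3 lowest for G2M, as in kept cells. For S the barcodes over 10% held 1009, 612, 645 and 1091 CPM, with day 7 highest and day 1 lowest, and those with the highest doublet scores 1248, 582, 470 and 831 CPM, with PBS highest and day 3 lowest.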

How the data were processed

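The deposited tables hold raw UMI counts per gene and barcode, whole numbers per the file headers. Cell Ranger 3.1.0, Seurat 3.1.2 and the build mm10 are named per the submitters' processing notes, with no role stated for Seurat. Kept cells had 500 genes or more and no more than 10% mitochondrial UMIs. Scrublet's automatic threshold (scanpy 1.11.5, expected rate 8%) marked only 1, 2, 1 and 2 cells and did not work, so the highest scores were removed at 0.8% per 1000 barcodes (768, 791, 296 and 69 cells). Counts were summed per library and gate, divided by the total UMIs of those cells, and compared with PBS (Python 3.11.15, scipy 1.17.1). Intervals of list medians are order-statistic intervals over members. A library without a count of a gene was set to a floor of 3 counts. The ratio and call rule was tested on simulated data with counting noise alone, in abundant genes with changes larger than the call limit. Variation between libraries was not simulated. Gene positions and transcript lengths are from GENCODE vM21 (mm10) and promoters from RefSeq (GRCm38). Reads shared with pseudogene copies were not checked.

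The members, lists and comparisons were chosen with earlier results of these data known. The planned tumour-like gate found no cell and was replaced after the data were seen. Values are given for the 6 S and 8 G2M members with the highest mean CPM, for the highest and lowest member of each list in each comparison and gate, for the 3 highest and 3 lowest genes of the other lists with at least 50 UMIs, and for the D-type cyclins, E2f and Cdkn genes. Other members are placed by role. Alternatives were edgeR 4.0.16 and DESeq2 1.42.0 scaling factors (R 4.3.3), other filters, gates and thinning depths. Some values that the rule for named genes would give are not reported here.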

Additional observations from a re-analysis of the deposited data

Results flagged for a closer look

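In 6 instances a list moved one way in macrophage-gated cells and the other way in another gate of the same libraries, each with a counting interval that excludes 0. The differences between gates were not tested, since each group is 1 library. Summed G2M UMIs on day 1 had a log2 ratio of 2.31 in Cdkn2a+ Ptprc- cells and 0.24 in the T gate, against -2.15 in macrophages. On day 7 summed G2M UMIs were at 0.97 in Cdkn2a+ Ptprc- cells, against -1.03 in macrophages. That day 7 sum rests on few cells, as 6 of 78 held at least 50% of its UMIs. The thinned share of Cdkn2a+ Ptprc- cells with 3 G2M members was 29.9% on day 7 and 25% after PBS, with overlapping intervals. Summed S UMIs were at 0.35 in the T gate on day 1, against -1.0 in macrophages, and on day 7 at 0.51 in the T gate and 0.26 in Cdkn2a+ Ptprc- cells, against -0.38. Both T gate values of day 1 rest on 3 barcodes that hold a Cdkn2a UMI: without such barcodes G2M was 1002 CPM on day 1 and 1225 CPM after PBS, and S was 835 CPM on day 1 and 801 CPM after PBS.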

How the results depend on the processing

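No paired analysis was possible because each group has 1 library, so no replicate could be left out either. The 214 recomputed list ratios were medians over members, or sums in the NK gate. Of these, 197 kept their place within the interval of the reported value, 17 moved and none with an interval that excluded 0 changed sign. Sums of the T gate were not among them. Its summed G2M of day 1 fell below PBS with at least 1000 genes per cell (1417 against 1440 CPM) and with a macrophage marker limit of 3% (945 against 1106 CPM). It stayed above PBS with a limit of 0.5%, a mitochondrial limit of 20% and doublets kept. In macrophages and over all kept cells, the scaling factors of edgeR and DESeq2, no filter on low counts, a mitochondrial limit of 20%, at least 1000 genes per cell and doublets kept moved no list median outside its interval, although the edgeR factors shifted the median of all features by -0.14 over all kept cells on day 1. At least 6 macrophage markers with no limit on their share gave a day 1 G2M median of -1.96. In the T gate the day 1 G2M median, reported as 0.16, was -0.24 with at least 1000 genes per cell, -0.24 with a macrophage marker limit of 3%, 0.97 with a limit of 0.5% and -0.57 without Cdkn2a-positive barcodes, so its direction changed with the gate. In the NK gate a limit of 0.5% gave G2M sums of -0.80, -0.75 and 0.45 on days 1, 3 and 7 and S sums of 0.80 and 0.93 on days 3 and 7, and a limit of 3% gave 0.36 for G2M on day 3. Cdkn2a+ Ptprc- cells without UMIs of Col1a1, Col3a1 and Dcn gave G2M medians of 4.63 and 2.13 and S medians of -0.75 and 0.71 on days 1 and 7, and without the Ptprc condition G2M medians of 1.29 and 0.17. The cause was not tested in any of these. Of 96 recomputed shares of cells, 62 moved outside the interval of the reported share and 34 did not. They follow the thinning depth and the number of members asked for, and are ordered here PBS, day 1, day 3 and day 7. Thinned to 1000 UMIs, the macrophages counted for G2M were 11.9, 1.78, 1.63 and 6.55% and for S 8.02, 2.40, 2.55 and 5.03%. Thinned to 4000 UMIs, the macrophages counted for G2M were 26.9, 5.60, 4.19 and 17.2% and for S 33.3, 13.8, 13 and 26.8%. With at least 2 members, the macrophages counted for G2M were 26.2, 7.50, 4.85 and 15.9% and for S 30.3, 15.1, 14 and 23.2%. With at least 5 members, the macrophages counted for G2M were 12.3, 1.80, 1.5 and 6.49% and for S 8.26, 2.13, 2.41 and 4.86%. Thinned to 1000 UMIs, the T-gated cells counted for G2M were 4.26, 4.05, 2.61 and 4.71% and for S 2.84, 2.70, 3.73 and 5.88%. Thinned to 4000 UMIs, the T-gated cells counted for G2M were 50, 17.3, 12.8 and 40.0% and for S 62.5, 20.1, 31.1 and 60.0%. With at least 2 members, the T-gated cells counted for G2M were 23.5, 18.8, 10.5 and 15.1% and for S 23.5, 23.1, 26.1 and 35.8%. With at least 5 members, the T-gated cells counted for G2M were 5.88, 3.97, 2.67 and 5.66% and for S 5.88, 3.25, 4.11 and 9.43%. With doublets kept, the PBS shares of macrophages were 19.4% for G2M and 19.0% for S, and with a mitochondrial limit of 20% the day 1 G2M share was 3.63%. In macrophages the PBS share was the highest and day 7 the second in each of these settings, for both lists. At 4000 UMIs the T gate kept only 16 cells after PBS and 10 on day 7. Depth limits the T gate most among these shares, where 59, 21, 54 and 41 cells were below 2000 UMIs.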
